A study of Mus musculus with 2 samples.

Results

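The low density lipoprotein (LDL) receptor family was examined in Prrc2a RIP-seq of mouse brain, through the peaks that overlapped an exon of Lrp1, Lrp1b, Lrp2, Lrp4, Lrp5, Lrp6, Lrp8 or Vldlr by at least 1 bp in the GENCODE M21 annotation of mm10 (GRCm38). The 8 genes were chosen by measured values of these same peaks, so the number of peaks in each gene is given as a description, without a test. Their exons were overlapped by 75 of 18129 peaks in replicate 1 and by 95 of 18671 in replicate 2. Peaks of replicate 1 with an overlap of 1 bp or more with replicate 2 were taken as shared, and 36 of the 8372 shared peaks lay in exons of the family. RIP-seq recovers and sequences the RNA that comes down with a protein, here with an antibody against Prrc2a, an RNA-binding protein studied as a reader of N6-methyladenosine (m6A) in mRNA. The material was whole brain of wild-type C57BL/6J males aged 4 weeks, measured in 2 replicates of 1 condition, so that no treatment, genotype or control group was compared. Each deposited peak carries a position and a fold enrichment over a control library that is not specified, with neither a strand nor a read count, and the depth behind it is unknown. No RNA level was measured in these files. The labelled tissue was therefore not checked against marker genes, and a transcript that was rare, present in few cells or simply not bound gives the same empty record. In such bulk tissue, fewer cells of a type and less RNA per cell cannot be told apart.

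The LDL receptor family consists of cell surface receptors that bind lipoproteins and many other extracellular proteins and carry them into the cell. Their extracellular parts are built from cysteine-rich LDL receptor class A repeats, which bind ligands, and from beta-propellers whose blades carry the YWTD motif (Tyr-Trp-Thr-Asp) and which take part in ligand release or, in some members, bind ligands themselves. In brain, Lrp1 clears apolipoprotein E particles and proteases, Lrp1b and Lrp2 are giant relatives of it, Lrp5 and Lrp6 are Wnt co-receptors, Lrp4 is a receptor for agrin, and Lrp8 (also called Apoer2) and Vldlr receive the reelin signal that positions migrating neurons.

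Prrc2a peaks were unevenly spread over the family. Shared exonic peaks were found in Lrp1b, with 23 of them, Lrp6, with 9, Lrp4, with 3, and Vldlr, with 1. Lrp1, Lrp5 and Lrp8 had exonic peaks but none in common between the replicates, and Lrp2 had no peak in either replicate. Hence 4 of 8 members had a shared exonic peak, where 12.0% of the 21951 protein-coding genes did. All 8 genes have at least 9000 exonic bp, counted over all their annotated transcripts together. Of the 2083 protein-coding genes with that many, 39.3% had a shared exonic peak. An exonic peak of any kind was present in 5 of 8 members in replicate 1, against 16.5% of protein-coding genes, and in 7 of 8 members in replicate 2, against 21%. These 2 shares cover genes of every length and were not computed for genes of at least 9000 exonic bp. No peak of the members overlapped an exon of another gene. The plot of counts by member shows that Lrp1b had more peaks in replicate 1 (55 against 26), as did Lrp6 by a small margin, whereas Lrp1, Lrp4, Lrp5, Lrp8 and Vldlr had more in replicate 2.

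**Figure D1:**
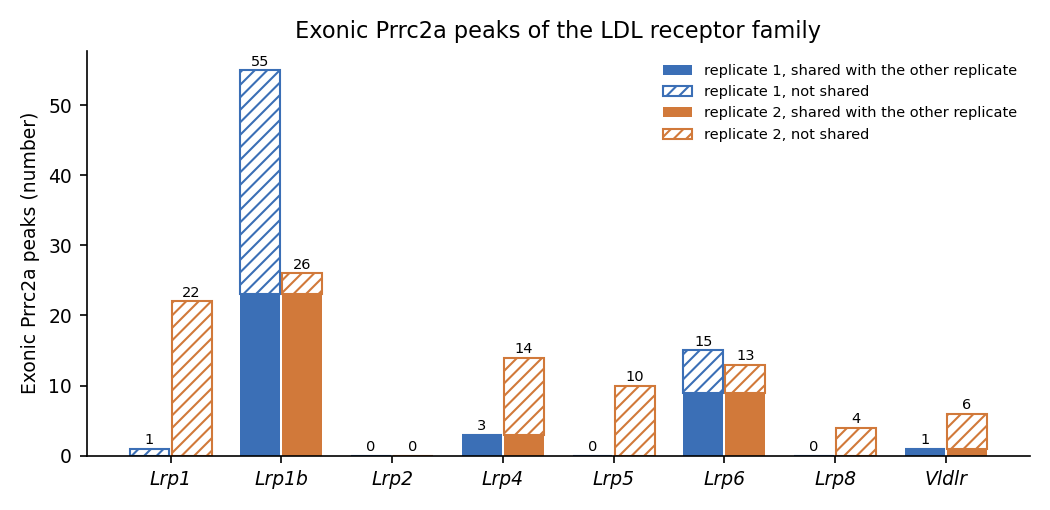
Number of exonic Prrc2a peaks (vertical axis) in each family member, with blue bars for replicate 1 and orange bars for replicate 2, solid where the peak was shared with the other replicate and hatched where it was not. Lrp1b led both replicates with 55 and 26 peaks, while Lrp1 had 22 peaks in replicate 2 and 1 in replicate 1, and Lrp2 had none.

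Lrp1b, an endocytic receptor with a structure close to that of Lrp1, was the member with the most peaks. The gene (ENSMUSG00000049252) lies on the reverse strand at chr2:40595246-42653624 of GRCm38 and spans 2058379 bp, of which 23774 bp are exonic. Its reference transcript has 91 exons, all of them with coding bases, and encodes 4599 codons. Although introns make up nearly the whole span, each of the 55 peaks of replicate 1 and each of the 26 peaks of replicate 2 within the gene touched an exon. Of the 91 coding exons, 56 were touched in replicate 1, 29 in replicate 2 and 26 in both. In replicate 1, the peaks formed unbroken runs over exons 1 to 18 and over exons 20 to 34. Replicate 1 peaks touched 39 of the 46 coding exons in the 5′ part of the transcript and 17 of the 45 in the 3′ part, and replicate 2 peaks touched 20 and 9. Thus the 5′ part was the more densely occupied in both replicates. Only 4 of 21951 protein-coding genes had more shared exonic peaks than Lrp1b, and 1 had the same number.

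The sequences below are the coding bases common to both replicates in the 3 shared Lrp1b peaks with the highest fold enrichment (geometric mean of the replicates), on the transcript strand from 5′ to 3′, with GGAC in capitals. GGAC was chosen because it is the core of the m6A consensus. They lie in exon 1 (chr2:42652735-42652816), exon 11 (chr2:41498165-41498401) and exon 27 (chr2:41295465-41295709), on the reverse strand of GRCm38. The peak over exon 27 also covers exon 26, whose common coding bases are not shown.
Lrp1b exon 1, codons 1 to 28: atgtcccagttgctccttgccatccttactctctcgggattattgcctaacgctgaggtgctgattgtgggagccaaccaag
Lrp1b exon 11, codons 518 to 597: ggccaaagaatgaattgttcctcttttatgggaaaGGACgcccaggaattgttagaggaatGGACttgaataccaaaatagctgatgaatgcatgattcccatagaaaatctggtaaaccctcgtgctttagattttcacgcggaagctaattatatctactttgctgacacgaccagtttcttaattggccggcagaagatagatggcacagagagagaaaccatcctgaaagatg
Lrp1b exon 27, codons 1445 to 1527: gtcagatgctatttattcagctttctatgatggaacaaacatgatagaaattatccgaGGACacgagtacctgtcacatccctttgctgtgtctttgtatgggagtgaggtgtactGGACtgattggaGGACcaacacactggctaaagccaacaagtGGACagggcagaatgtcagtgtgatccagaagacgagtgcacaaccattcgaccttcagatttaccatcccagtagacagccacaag
The exon 1 bases hold no GGAC, the exon 11 bases hold 2 and the exon 27 bases hold 4.

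The most enriched Lrp1b peak covered the start codon. It ran from 42652594 to 42653451 in replicate 1 with a fold enrichment of 12.0, and the overlapping peak of replicate 2 had a fold enrichment of 5.02. Its midpoint lay in the 5′ UTR, and its exonic bases held 5 GGAC, none of them in the 82 coding bases printed above. At the exon 11 peak, replicate 1 reached 6.26 and replicate 2 reached 3.01. The peak over exons 26 and 27, with 8 GGAC in its exonic bases, had fold enrichments of 4.46 and 3.63. In the opposite direction, the exon 55 peak was the highest of replicate 2, at 5.35, and had 2.69 in replicate 1. Over all its exonic peaks, Lrp1b ranged from 1.68 to 12.0 in replicate 1 (median 3.07, n = 55) and from 1.91 to 5.35 in replicate 2 (median 2.75, n = 26).

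In Lrp1b, the peaks that replicate 2 lacked were not the least enriched ones of replicate 1. The 32 Lrp1b peaks found only in replicate 1 had a median fold enrichment of 3.23 and ranged from 1.72 to 7.0, whereas the 23 shared ones had a median of 2.96. The strongest of the 32, over exon 12 (fold enrichment 7.0), lay next to the shared peak over exon 11. In other protein-coding genes, the median was also higher for peaks of replicate 1 only, at 2.49 against 2.27 for shared ones. In Lrp6 it was lower, at 1.85 against 2.13. Only 3 Lrp1b peaks were specific to replicate 2, over exons 84, 74 and 47, with fold enrichments of 2.48, 2.01 and 3.41. In replicate 2, 14 of the 26 Lrp1b values (53.8%) were identical to the value of at least 9 other peaks in the list, against 15.3% of all peaks of that replicate. Such ties were found for 5 of 55 Lrp1b values in replicate 1 (9.09%), where 24.8% of all peaks were tied. Their part in the fold enrichments was not tested.

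The Lrp1b peaks were centred on exons. Of the 23 shared peaks, 20 touched a single exon in replicate 1, and 18 of these covered it from end to end. The touched exons had a median length of 194 bp and the peaks one of 462 bp, and the centres of peak and exon were a median of 15.75 bp apart. In replicate 2, 15 of 20 such peaks covered the exon, with a median distance of 18.5 bp. A median of 40.8% of the bases of these replicate 1 peaks was exonic, and the flanks ran into the introns on both sides. How a peak caller that reads genomic positions treats fragments across splice junctions was not tested.

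**Figure D2:**
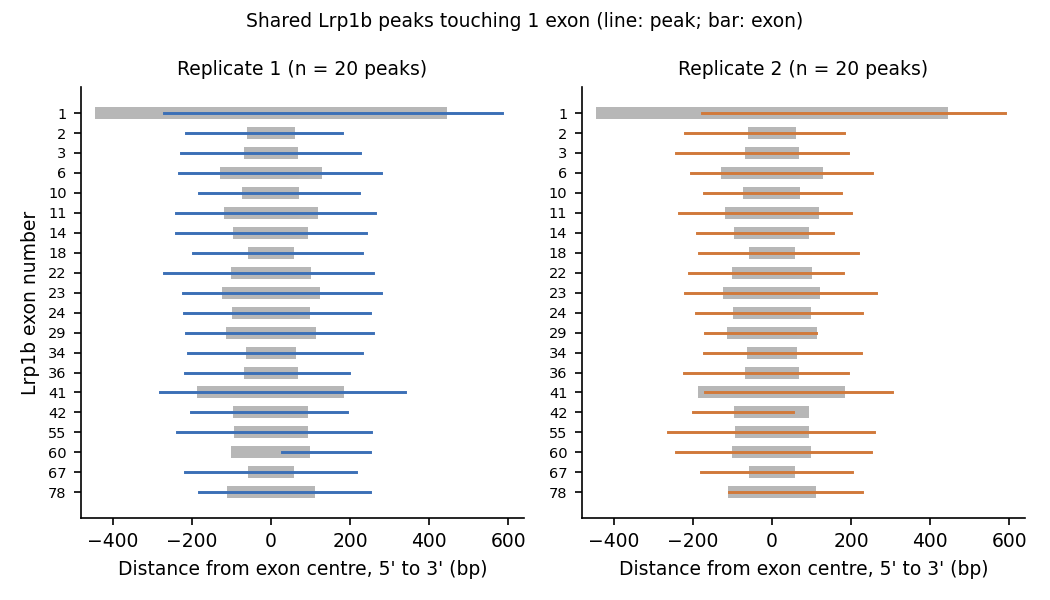
Extent of the shared Lrp1b peaks that touch a single exon (coloured lines) and of that exon (grey bars), as distance in bp from the exon centre in the direction of transcription, with 1 row for each exon and 20 peaks in each replicate. Lines overhang the exon on both sides in 18 peaks of replicate 1 and 15 of replicate 2.

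Lrp1, the receptor for apolipoprotein E particles, alpha-2-macroglobulin and proteases, gave the opposite picture (ENSMUSG00000040249, reverse strand, chr10:127538161-127621148). Its 89 coding exons encode 4545 codons, close to the size of Lrp1b. Replicate 1 had 1 exonic peak in the gene, in the 5′ UTR, with a fold enrichment of 1.63. Replicate 2 had 22, with fold enrichments from 1.39 to 3.94 (median 2.05), which touched 41 coding exons and covered 37.3% of the coding bases. They included a run over exons 21 to 32. The peaks of the replicates did not overlap, so Lrp1 had no shared peak. The highest value, 3.94, belonged to a peak over exons 16 and 17.

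Lrp5 and Lrp6, paired co-receptors that carry the Wnt signal together with Frizzled proteins, differed in the same way. Lrp6 (ENSMUSG00000030201, reverse strand, chr6:134446476-134566965) had 15 exonic peaks in replicate 1, 13 in replicate 2 and 9 shared. Lrp5 (ENSMUSG00000024913, reverse strand, chr19:3584828-3686564) had none in replicate 1 and 10 in replicate 2. Both genes have 23 coding exons, with 1613 codons in Lrp6 and 1614 in Lrp5. In replicate 2 they were occupied to a like extent, with 10 coding exons touched in each, 47.0% of the coding bases covered in Lrp6 and 43.6% in Lrp5. The difference between them in shared peaks came from replicate 1, in which 11 coding exons of Lrp6 and 0 of Lrp5 were touched.

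For Lrp1 and Lrp5, the sequences shown are the longest coding stretches, without UTR bases of any transcript, in the most enriched replicate 2 peak that holds such a stretch. They lie in exon 16 of Lrp1 (chr10:127584613-127584753) and exon 2 of Lrp5 (chr19:3659244-3659504). For the most enriched shared Lrp6 peaks with coding bases, 300 bases are shown from the middle of the coding bases common to both replicates in exon 6 (chr6:134507335-134507634) and exon 12 (chr6:134479523-134479822). All are on the reverse strand of GRCm38 and are written in the direction of transcription with GGAC in capitals.
Lrp1 exon 16, codons 845 to 892: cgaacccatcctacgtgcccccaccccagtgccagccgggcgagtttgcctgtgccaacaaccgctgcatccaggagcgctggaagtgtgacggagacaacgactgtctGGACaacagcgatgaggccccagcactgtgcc
Lrp5 exon 2, codons 75 to 162: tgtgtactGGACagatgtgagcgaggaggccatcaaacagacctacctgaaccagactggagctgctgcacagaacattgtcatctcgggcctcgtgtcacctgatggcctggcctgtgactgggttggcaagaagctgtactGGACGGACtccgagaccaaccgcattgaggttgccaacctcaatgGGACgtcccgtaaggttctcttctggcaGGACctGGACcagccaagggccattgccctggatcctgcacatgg
Lrp6 exon 6, codons 342 to 442: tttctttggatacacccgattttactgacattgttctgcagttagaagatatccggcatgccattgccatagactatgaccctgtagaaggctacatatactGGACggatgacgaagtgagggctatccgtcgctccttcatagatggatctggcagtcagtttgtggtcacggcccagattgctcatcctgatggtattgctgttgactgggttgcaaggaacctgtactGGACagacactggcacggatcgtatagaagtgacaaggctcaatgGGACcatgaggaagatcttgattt
Lrp6 exon 12, codons 826 to 926: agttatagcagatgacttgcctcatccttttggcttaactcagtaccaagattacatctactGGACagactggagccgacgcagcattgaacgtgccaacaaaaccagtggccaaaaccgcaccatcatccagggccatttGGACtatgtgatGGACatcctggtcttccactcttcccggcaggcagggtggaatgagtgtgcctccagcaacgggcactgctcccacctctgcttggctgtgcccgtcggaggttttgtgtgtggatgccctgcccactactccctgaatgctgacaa
GGAC occurs 1 time in the Lrp1 bases, 6 times in the Lrp5 bases and 3 times in each of the Lrp6 stretches.

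In Lrp6, the 9 shared peaks comprised 5 with their midpoint in the CDS, 3 in the 3′ UTR and 1 in the 5′ UTR, and they covered both ends of the reading frame. The 5′ UTR peak, which covered the start codon, was enriched by a factor of 2.31 in replicate 1 and 1.65 in replicate 2. The peak over the stop codon in exon 23 had 2.07 and 1.61. Within the CDS, the exon 6 peak had 2.64 and 2.93, the exon 9 peak 2.01 and 2.64, the exon 12 peak 2.64 and 2.32, and the exon 13 peak 1.81 and 2.51. Replicate 1 peaks formed a run over exons 6 to 13. In the 3′ UTR of 4310 bp, the 3 shared peaks were higher in replicate 2, at 3.75, 2.84 and 5.54, than in replicate 1, at 2.31, 1.67 and 2.13. The last of these (134449969 to 134450278 in replicate 2) was the highest Lrp6 value and held no GGAC. Of the 4 peaks found only in replicate 2, over exons 5, 17, 18 and 20, the highest was that of exon 18, at 3.74.

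In Lrp5, all 10 replicate 2 peaks had their midpoint in the CDS and touched a single exon each. Their fold enrichments ran from 2.06 to 4.01 (median 2.59), with the highest in exon 16 and the next, 3.88, in exon 2. The exon 6 peak had the most GGAC, with 7. Lrp1 and Lrp5 were among 17 protein-coding genes with at least 10 exonic peaks in replicate 2 and no shared one, which is 5.69% of the 299 genes with that many. Of these 17 genes, 14 had no exonic peak in replicate 1. In replicate 1, 197 protein-coding genes had at least 10 exonic peaks, and 1 of them lacked a shared one.

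Lrp4, which binds agrin and activates the kinase MuSK at the neuromuscular junction and is also a Wnt pathway modulator, had 3 exonic peaks in replicate 1, all of them shared, and 14 in replicate 2 (ENSMUSG00000027253, forward strand, chr2:91457511-91513779). The shared peaks were similarly enriched in the replicates. The peak over exons 14 and 15 had 3.83 in replicate 1 and 4.84 in replicate 2, the exon 29 peak 3.78 and 3.61, and the exon 38 peak, which covered the stop codon, 3.35 and 3.71. Among the 11 peaks of replicate 2 alone, the highest was over exon 7, at 5.18, and the lowest over exon 28, at 1.61. Replicate 2 peaks formed a run over exons 21 to 30. In replicate 1, 116 of the 278 exonic bp of the peak over exons 14 and 15 were coding. Its exonic bases common to both replicates held 2 GGAC, not in the coding bases. The exon 29 peak held 3 GGAC in replicate 1 and 0 in the bases common to both replicates. The common coding bases of exon 14 (chr2:91480419-91480530) and exon 29 (chr2:91497039-91497108) in these 2 peaks, forward strand of GRCm38, hold no GGAC.
Lrp4 exon 14, codons 602 to 639: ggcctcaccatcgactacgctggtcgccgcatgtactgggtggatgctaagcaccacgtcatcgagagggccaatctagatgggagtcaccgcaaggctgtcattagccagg
Lrp4 exon 29, codons 1460 to 1483: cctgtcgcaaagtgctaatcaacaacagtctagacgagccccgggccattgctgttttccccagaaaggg

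Vldlr and Lrp8, the reelin receptors, had few peaks. Vldlr (ENSMUSG00000024924, forward strand, chr19:27216484-27254231) had 1 exonic peak in replicate 1, in exon 5, with a fold enrichment of 1.81, and the overlapping peak of replicate 2 had 2.26. Its exonic bases in replicate 1 held 2 GGAC. The other 5 peaks of Vldlr were found in replicate 2 only, 4 of them in its 3′ UTR of 5091 bp, with fold enrichments of 1.98, 3.14, 1.76 and 1.70, and 1 in the 5′ UTR, at 1.90. Lrp8 (ENSMUSG00000028613, forward strand, chr4:107802261-107876840) had 4 exonic peaks in replicate 2, with fold enrichments of 2.11 in exon 5, 2.27 in exon 18, and 2.00 and 2.52 in the 3′ UTR, and none in replicate 1. It was the member with a shared peak in an intron, described at the end. Lrp2, also called megalin, the endocytic receptor of absorptive epithelia (ENSMUSG00000027070, reverse strand, chr2:69424340-69586065), has 79 coding exons and 4660 codons and was listed with no peak, exonic or intronic.

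**Figure D3:**
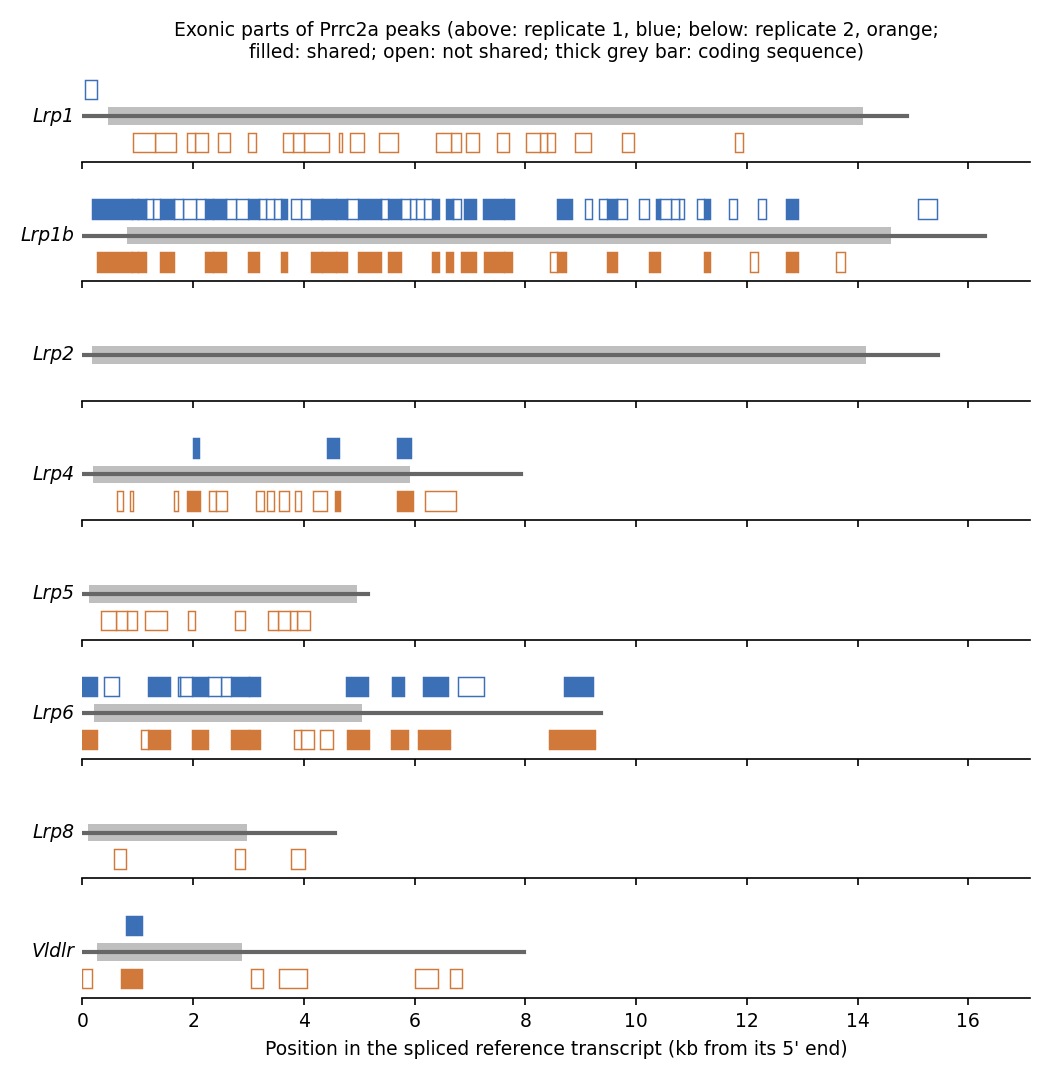
Exonic parts of the Prrc2a peaks along the spliced reference transcript of each member (horizontal axis, kb from the 5′ end), with replicate 1 above and replicate 2 below the transcript, filled where the peak was shared and open where it was not, and the coding sequence as a thick grey bar. Filled peaks of both replicates stand over the same stretches by definition, 32 of the 55 Lrp1b peaks of replicate 1 are open, the peaks of Lrp1 and Lrp5 are in replicate 2 apart from 1, and 3 peaks in exons outside the reference transcripts are not drawn.

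Per kb of exon, Lrp1b had 0.97 shared peaks, Lrp6 0.66, Lrp4 0.29 and Vldlr 0.10. The order of the members was therefore the same as by number. It held in replicate 1 by all exonic peaks, with 2.31 per kb in Lrp1b and 1.10 in Lrp6. In replicate 2, Lrp4 (1.33 per kb), Lrp1 (1.24), Lrp1b (1.09), Lrp5 (1.03) and Lrp6 (0.95) stood close together, above Vldlr (0.60) and Lrp8 (0.38). With 1 value per replicate, none of these orders has a replicate error.

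The fold enrichments of the shared peaks were close between the replicates at the median, but not peak by peak. Over the 36 shared peaks, the log2 ratio of the replicate 1 to the replicate 2 value was -0.09 at the median (SD across peaks 0.57). It ranged from -1.38 to 1.25, with 14 peaks higher in replicate 1 and 22 higher in replicate 2. Over the 8336 shared peaks elsewhere, the median was -0.27 and the SD 0.53. The median over the peaks, each taken as the mean of its replicate values, was 2.98, and it was 2.48 without Lrp1b. In replicate 1 alone, the shared peaks of the family had a median of 2.64, against 2.27 for those of other protein-coding genes. Without Lrp1b, the family value was 2.31. Over all exonic peaks, the medians were 2.70 against 2.35 in replicate 1 and 2.51 against 2.50 in replicate 2. Where both values of a shared peak had to reach 4, only the Lrp1b exon 1 peak was left.

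**Figure D4:**
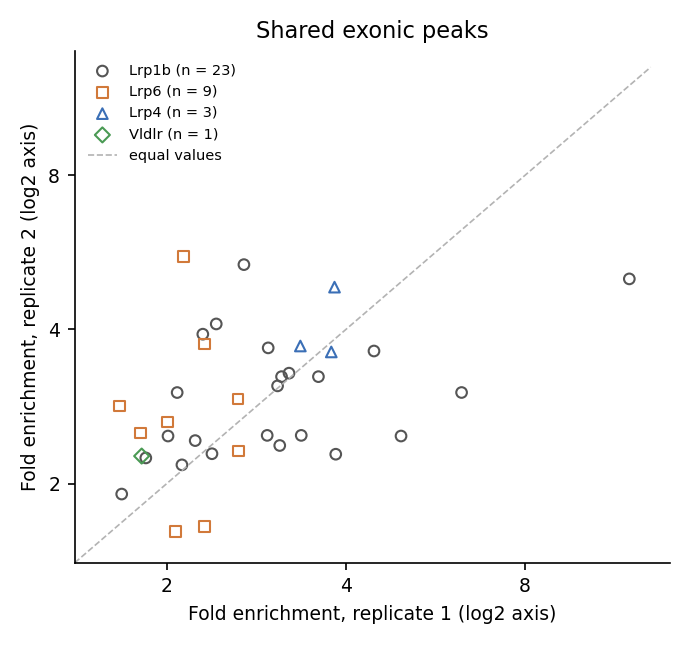
Fold enrichment of the 36 shared exonic peaks in replicate 1 (horizontal log2 axis) and in the overlapping replicate 2 peak (vertical log2 axis), 1 point a peak, with a symbol for each gene and a dashed line of equal values. The 3 Lrp4 peaks lie near the line, the Lrp1b exon 1 peak lies to the right at 12.0 and 5.02, and an Lrp6 3′ UTR peak lies above it at 2.13 and 5.54.

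Coding sequence held most of the shared peaks. By their midpoint, 27 of the 36 (75%, 95% Wilson interval 58.9% to 86.2%) lay in the CDS, 3 (8.33%) in the 3′ UTR, 2 in the 5′ UTR, 1 in another exon and 3 in an intron. The 3′ UTR peaks all belonged to Lrp6. Of the 7281 shared peaks in other protein-coding genes, 50.6% lay in the CDS and 30.5% in the 3′ UTR. Among those with 141 to 252 exonic bp, the middle range of the Lrp1b peaks, the shares were 61.5% and 21%. Lrp1b supplied 19 of the 27 coding peaks, and without it the CDS share was 8 of 13 (61.5%, interval 35.5% to 82.3%). Coding sequence is also much of these transcripts, with 13800 of 16294 bp in the Lrp1b reference transcript and 4842 of 9368 bp in that of Lrp6. It held 19 of 23 shared peaks in Lrp1b and 5 of 9 in Lrp6. The CDS share also depends on the rule, since many peaks overhang short exons: by the region with the most overlapping bases it was 30.6%. Intervals cover counting error only, and peaks of the same transcript are not independent.

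GGAC was present in a like share of peaks in the family and elsewhere. It was present in the exonic bases of 28 of the 36 shared peaks (77.8%, interval 61.9% to 88.3%), and in 77.9% of the shared peaks of other protein-coding genes. Within 50 bp of the midpoint, the share in the family was 44.4%. By density, the family peaks held 66 GGAC in 9663 exonic bp, or 6.83 per kb, against 4.64 per kb elsewhere. In Lrp1b, 17 of 23 peaks (73.9%, interval 53.5% to 87.5%) held a GGAC. Of other shared peaks with 141 to 252 exonic bp, the middle range of the Lrp1b peaks, 62.4% did. The 23 Lrp1b peaks were not limited to that range and had from 72 to 717 exonic bp. The density was 7.63 per kb in the shared Lrp1b peaks, 4.12 per kb in the 32 peaks of replicate 1 alone, and 4.21 per kb in all Lrp1b exons. These exons include UTRs, and the Lrp1b CDS alone held 80 GGAC in 13800 bp. That is less dense than the shared peaks and denser than the peaks of replicate 1 alone. For Lrp6 the density was 5.54 per kb in the shared peaks and 4.53 in all exons. The Lrp6 CDS held 38 GGAC in 4842 bp and was denser than the shared peaks. Unlike in Lrp1b, the density was higher than in the shared peaks, at 7.40, in the 6 Lrp6 peaks of replicate 1 alone. In the 4 Lrp6 peaks of replicate 2 alone it was 3.84. In the replicate 2 peaks of the other members, the density was above that of all exons in Lrp5 (12.4 against 7.39 per kb) and Lrp1 (10.4 against 8.13), close to it in Lrp4 (6.49 against 6.57) and below it in Vldlr (1.81 against 2.48) and Lrp8 (3.34 against 6.37). All exons include UTRs, whereas these Lrp5 peaks and most of those of Lrp1 had their midpoint in the CDS. The CDS held 60 GGAC in 4845 bp in Lrp5, where the peaks held 27 in 2185 bp and were thus no denser. It held 134 in 13638 bp in Lrp1 (peaks 55 in 5292 bp) and 50 in 5718 bp in Lrp4 (peaks 19 in 2929 bp). The reverse complement GTCC was present in 38.9% of the shared family peaks and in 75.4% of those elsewhere, which had more exonic bases (median 376 against 244.5 bp). It was present in 59.3% of the other shared peaks of 141 to 252 exonic bp, and in 61.5% of the family peaks without Lrp1b.

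Part of these GGAC are written by the YWTD repeats themselves. A Trp codon followed by a Thr codon reads TGGACN and so always contains GGAC. In the reference coding sequences of the 8 members, 92 of 482 GGAC (19.1%) were read in frame in this way, against 4.74% of 172117 GGAC in 21930 other protein-coding genes. In 68 of them (14.1%), a Tyr or Phe codon preceded and an Asp codon followed, as in the repeat, against 0.03% elsewhere. Because the family carries YWTD repeats, this excess follows from the choice of genes and says nothing about the peaks. The coding bases covered by peaks of both replicates held 50 GGAC, 35 in Lrp1b, 13 in Lrp6 and 2 in Vldlr. Of these, 15 were Trp-Thr codon pairs and 11 had the full repeat pattern, 7 in Lrp1b and 4 in Lrp6. Over the whole CDS, 11 of 80 GGAC in Lrp1b and 10 of 38 in Lrp6 had the full pattern. Among the sequences printed, such repeat codons account for 2 of 6 GGAC in Lrp5 exon 2, 2 of 3 in Lrp6 exon 6, 1 of 3 in Lrp6 exon 12 and 1 of 4 in Lrp1b exon 27. Lrp4 has 13 of these repeat codons among its 50 coding GGAC, and none of its GGAC lay in coding bases covered in both replicates. This count was added after the sequences had been seen, and it describes the reading frame, not a site of binding.

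GC content differed between the members. The coding sequences of Lrp1, Lrp5 and Lrp8, which had no shared peak, had a GC content of 58.0%, 59.0% and 59.2%. Those of Lrp1b, Lrp6 and Vldlr, with shared peaks, had 44.4%, 49.3% and 49.2%. Lrp4, with 56.2%, had shared peaks and Lrp2, with 49.7%, had none, so the division was not complete. Over the exonic bases of the family peaks, the median GC content was 44.7% for those found only in replicate 1, 47.1% for the shared ones and 56.9% for those found only in replicate 2. The pooled sets differ in members, since Lrp1b supplied 32 of the 39 peaks of replicate 1 only and 3 of the 59 of replicate 2 only. Within Lrp1b, the medians in the same order were 44.3%, 43.7% and 46.7%, and within Lrp6 they were 46.6%, 49.6% and 47.5%. Lrp4 had 57.9% for shared peaks and 54.7% for those of replicate 2 only, and Vldlr had 55.9% and 43.2%. In other protein-coding genes, the corresponding medians were 51.7%, 53.4% and 53.6%, and thus closer together than the pooled family values. The part of GC content in the difference between the replicates was not tested.

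**Figure D5:**
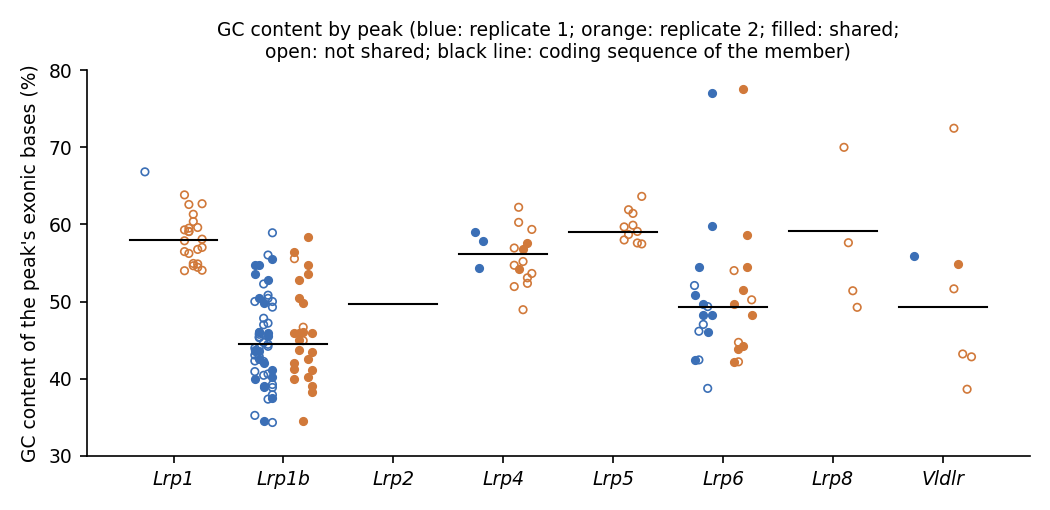
GC content of the exonic bases of each peak (vertical axis, %) by member, with replicate 1 in blue and replicate 2 in orange, filled for shared and open for other peaks, and a black line for the GC content of the member's coding sequence. Most Lrp1b and Lrp6 peaks sit below 55%, and the replicate 2 peaks of Lrp1 and Lrp5 sit between 54% and 63.8%.

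Relatives and partners of the family were counted in 4 lists, with 38 genes in all. A shared exonic peak was found in 5 of them, beside the 12.0% of all protein-coding genes given above. An exonic peak of any kind was present in 6 of the 38 genes in replicate 1 and in 14 in replicate 2, beside the 16.5% and 21% of all protein-coding genes. Of the 38, 9 had exonic peaks in replicate 2 only, 1 had an unshared peak in replicate 1 and 23 had no exonic peak. Among 10 relatives with class A repeats, Lrp12 had 5 shared peaks (fold enrichments from 1.44 to 1.96 in replicate 1) and Ldlrad4, a regulator of TGF-beta signalling, had 5 (1.71 to 2.38), whereas Sorl1 had 1 peak, in replicate 2. The 5 Lrp12 peaks of replicate 1 overlapped 2 of the 3 peaks that replicate 2 had in the gene. Of 4 VPS10 sorting receptors, Sorcs3 had 1 shared peak (1.94 in replicate 1 and 1.65 in replicate 2). Of 12 ligands and cofactors, Thbs1, encoding thrombospondin 1, had 1 (3.51 and 3.21). Reln, which encodes reelin, had 13 exonic peaks in replicate 2 and 0 in replicate 1, as seen for Lrp1 and Lrp5, and Apoe, App, Agrn and Lpl had no exonic peak. Of 12 adaptors, chaperones and regulators, Dab1, the adaptor that Vldlr and Lrp8 use in reelin signalling, had 1 shared peak (4.51 and 1.72). Mesd, the chaperone of Lrp5 and Lrp6, had 1 peak in replicate 1 only, and Lrpap1 and Dab2 had no exonic peak.

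The genes nearest to Lrp1b in number of shared exonic peaks also encode very large extracellular or membrane proteins. They were Fbn2 (fibrillin 2) with 23, Fat3, a giant cadherin, with 21, Notch2 with 20, Csmd2 with 19 and Csmd3 with 27. In Fbn2, Csmd2 and Csmd3, replicate 1 had more exonic peaks than replicate 2, with 50 against 24, 47 against 20 and 53 against 33, as it did in Lrp1b. Fat3 (24 against 25) and Notch2 (21 against 25) did not show this surplus. Likeness here is the number of shared peaks over 2 replicates only.

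No member peak lay close to the limits of the rule for being shared. The smallest overlap of a shared pair was 203 bp, in Lrp4, and the unshared peak closest to a peak of the other replicate, in the 3′ UTR of Lrp6 in replicate 1, was 140 bp away. The smallest exonic part of a peak was 33 bp, over exon 7 of Lrp6 in replicate 1. The closest excluded peak was an intronic one of Vldlr in replicate 2, 11 bp from an exon.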

How the data were processed

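Prrc2a RIP-seq of wild-type mouse brain was given as 1 peak list per replicate. The authors aligned reads to mm10 and called peaks in each replicate with MACS2 (the submitters' processing notes give TopHat2 2.0.9 and MACS2 2.0.10, and the methods name later versions). The deposited values are peak positions and a linear fold enrichment over a control not stated in the sources used here. Depth is unknown.

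Peaks were joined to GENCODE M21 exons and GRCm38 sequence with Python 3.11.15, pysam 0.24.0 and samtools 1.23.1, and bedtools 2.31.1 gave the same 8372 shared peaks. Regions follow the peak midpoint, and motifs were read on the strand of the gene in exonic bases. Wilson intervals used statsmodels 0.14.6. The functions were tested on simulated data, where 6 of 6 quantities were recovered exactly. For motifs, the simulation tested counting and not the reading of the strand. The reference transcripts of all 8 members were identical to the genome sequence read on the strand of the gene. The members and lists were chosen with earlier results of these data known. All members are named, along with list genes with a shared peak, up to 10 without, and the 5 genes nearest to Lrp1b. With 1 condition no test was run. Alternatives varied the overlap, the fold enrichment, the annotation, the region rule, the motif and the replicates. A planned count of protein repeats was not run on proteins, and repeat codons were counted in the reference coding sequences instead. The value of 1 list gene and the sequence of 1 peak are not reported here.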

Additional observations from a re-analysis of the deposited data

How the results depend on the processing

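Counts of members (4) and of shared peaks (36) were the same with basic transcripts or with each peak given to the gene with the most exon bases, and 34 peaks in 4 members were left with an overlap of 50% of both peaks. Counting whole gene spans gave 37 peaks in 5 members. Requiring 4-fold enrichment of both peaks left 1 member and 1 peak, so that the CDS share became 0%, the GGAC share 100% and the median fold enrichment 8.50. With the peaks of a single replicate, members ranged from 5 to 7, peaks from 75 to 95, the CDS share from 72.6% to 78.7%, the GGAC share from 64.0% to 72.6% and the median from 2.51 to 2.70. The CDS share was 30.6% by the region with the most overlapping bases. The GGAC share was 55.6% for GGACT, 69.4% in bases common to both replicates and 44.4% within 50 bp of the midpoint. Without the peaks of Lrp1b, an alternative chosen after seeing the data, 13 peaks were left, with a CDS share of 61.5%, a GGAC share of 84.6% and a median of 2.48. Of 64 counts for single members, 51 stayed within 1.5 times their value and 13 did not, 8 of these with the peaks of 1 replicate alone. Many of the 51 were counts of 0 that stayed at 0, as for Lrp2 in every setting, and a stricter rule cannot change these. The causes were not tested. Depth is unknown, so a member without a peak has no limit of detection. No paired analysis was possible because there was 1 group.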

Other observations

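Peaks in introns were few in the family. Lrp8 had 2 in each replicate, and 1 of those of replicate 1 overlapped both of replicate 2. Their fold enrichments ran from 3.77 to 7.79 in replicate 1 and from 2.93 to 3.58 in replicate 2, above the exonic Lrp8 peaks, which did not exceed 2.52. Lrp1 had 2 intronic peaks, with fold enrichments of 2.55 and 5.0, Lrp4 had 1, at 2.89, and Vldlr had 1, at 2.09, all in replicate 2 only. Lrp1b also had a pair of replicate 1 peaks, at 42651179 to 42651454 and 42651817 to 42652350, in 3′ UTR exons of a short transcript just downstream of exon 1 of the reference transcript, with fold enrichments of 5.13 and 2.73 and no counterpart in replicate 2.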
